A study of Mus musculus with 19 samples.

Results

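Histone genes were followed by array through the first 12 h of the response of quiescent NIH3T3 mouse fibroblasts to FGF, with and without the MEK inhibitor U0126. A probe set was taken where its annotation gave a single gene symbol starting with H1f, H2ac, H2bc, H2az, H2ax, H2af, H3c, H3f3, H4c, H4f or Hist, and where its signal passed the 40th percentile of the array on at least 2 arrays. This gave 23 probe sets of 17 genes, out of 27915 single-gene probe sets that passed the same filter and 45101 probe sets on the array. They fell into 7 probe sets of linker histones (5 genes), 9 of replication-dependent core histones (7 genes) and 7 of variant core histones (5 genes). Another 2 probe sets, 1 of H1f7 and that of the oocyte linker histone H1f8, were above the percentile on 0 arrays and were not kept, while the H3c11 probe set was just inside with 3 arrays. Of the 23, 13 were above the percentile on all 19 arrays. H4 genes and the linker H1f0 had no single-gene probe set here and were not analysed singly.

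All cells were NIH3T3, an established immortalised line, starved for 48 h in 0.1% serum after growth in 10% serum. The 11 groups were quiescent cells (3 arrays, 2 of them from experiment 1), cells given 50 ng/ml basic FGF for 1 h (1 array) or for 4, 7 or 12 h (2 arrays each), the same 4 times with 20 µM U0126 added at -0.5 h relative to FGF (1 array at 1 h, otherwise 2 each), and cells given U0126 only after FGF, at 1 h and measured at 7 h or at 7 h and measured at 12 h (1 array each). U0126 blocks MEK, the kinase that activates ERK, and the study asked what ERK activity contributes at successive stages between G0/G1 and S phase. The quiescent group is the only one without FGF, so FGF and hours in culture cannot be told apart in a comparison with it. Every group of 1 array is from experiment 1, so its comparison with a larger group also holds any difference between the experiments. The labels do not say that experiments 1 and 2 were separate cultures, so p-values measure the spread between these samples, which may be technical.

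Histones package DNA into nucleosomes. Linker histones of the H1 family bind where DNA enters and leaves the nucleosome, replication-dependent core histones are made in bulk while DNA is copied, and variant histones such as H2A.Z, H2A.X and H3.3 are also made outside S phase and mark particular chromatin. Messenger RNAs of most replication-dependent histones end in a stem-loop bound by SLBP instead of a poly(A) tail, whereas those of most variant histones are polyadenylated. Standard Affymetrix labelling, which the labels name, primes from poly(A), so for stem-loop transcripts, of linker or core histones, the signal is a limited measure of the RNA. Whether this limits the H1f2 or H2ax signal was not tested.

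The 250 bases before the start sites of 4 members called below, H1f2, H1f10, H2az1 and H2az2, are shown to let the shared letters be seen. They come from RefSeq promoters on GRCm38.p6, which held 14 of the 17 genes and lacked H2ax, H2bc21 and H3c7. The promoter of H2bc22, also called below, is not shown. In capitals are AAACACA, the letters of the H1 box known from linker histone promoters, and CCAAT, which reads ATTGG where it lies on the other strand.
H1f2 (chr13:23738557-23738806, plus strand): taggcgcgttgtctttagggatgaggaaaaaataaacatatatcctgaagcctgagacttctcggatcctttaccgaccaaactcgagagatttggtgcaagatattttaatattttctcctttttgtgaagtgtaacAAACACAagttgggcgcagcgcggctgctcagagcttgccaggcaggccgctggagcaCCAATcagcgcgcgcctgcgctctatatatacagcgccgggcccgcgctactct
H1f10 (chr6:87981483-87981732, minus strand): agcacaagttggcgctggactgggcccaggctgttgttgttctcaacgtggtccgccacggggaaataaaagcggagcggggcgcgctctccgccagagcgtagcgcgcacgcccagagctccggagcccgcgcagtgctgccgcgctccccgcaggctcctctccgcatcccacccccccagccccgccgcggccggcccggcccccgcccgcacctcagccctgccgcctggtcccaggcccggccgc
H2az1 (chr3:137864237-137864486, plus strand): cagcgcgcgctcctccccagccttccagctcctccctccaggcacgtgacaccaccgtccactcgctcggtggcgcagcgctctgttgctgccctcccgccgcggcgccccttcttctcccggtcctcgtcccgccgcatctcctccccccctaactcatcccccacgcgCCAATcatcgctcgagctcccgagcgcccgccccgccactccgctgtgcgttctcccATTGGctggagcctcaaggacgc
H2az2 (chr11:6444444-6444693, minus strand): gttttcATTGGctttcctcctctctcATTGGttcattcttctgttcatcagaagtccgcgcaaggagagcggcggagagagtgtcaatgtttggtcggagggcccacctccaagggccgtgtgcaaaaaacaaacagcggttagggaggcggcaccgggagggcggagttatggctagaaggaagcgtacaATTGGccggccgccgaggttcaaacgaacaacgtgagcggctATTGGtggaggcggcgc
In the full window of 300 bases, from 250 before to 50 after the start and on both strands, CCAAT occurred in 12 of the 14 histone promoters, against 37.4% of 32851 promoters in the table. AAACACA occurred in 4 of 14, those of H1f2, H1f4, H1f6 and H3f3a, against 7.18% of all promoters. In the 3 linker promoters it began 112, 115 and 114 bases before the start of H1f2, H1f4 and H1f6, on the coding strand, with CCAAT beginning at 54, 52 and 65 bases before it. H1f10 held neither string. H2az1 held CCAAT 3 times and H2az2 4 times. The TATA letters TATAAA occurred in 5 of 14 (13.6% of all promoters), and 1 of 14, that of H2bc22, held 1 of the 4 E2F strings searched, TTTCGCGC, TTTGGCGC, TTTCCCGC and TTTGCCGC (2.26% of all promoters held any of them). No searched string overlapped another. A match is a description of letters and not a binding site.

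Signals are MAS5 values on a linear scale, with the mean of each array after trimming 2% at both ends set to 500. Array medians lay between 60.2 and 88.3. Of the fibroblast genes, Col1a1, Col1a2, Vim, Thy1, Pdgfrb and S100a4 were above the 40th percentile on all 19 arrays, with mean signals in the 90th to 100th percentile. Of 10 markers of macrophages, epithelium and endothelium, Ptprc passed that percentile on 0 arrays and Pecam1 on 1, while Csf1r and Epcam passed on all 19. Differences are given as log2(signal + 13.6) ± SE, with fold changes on that scale, which understates the change of low probe sets. Calls are from limma with Benjamini-Hochberg adjustment over all 27915 probe sets, at an adjusted p under 0.05. The fit held no block for the experiment unless a block is named. In these bulk samples fewer cells making a transcript and less RNA per cell cannot be told apart.

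Of the histone genes, H1f2 was called lower in 2 of its 3 probe sets from 4 h of FGF, H2ax higher from 4 h and H2az1 higher at 12 h. Against quiescent cells, 0 of 23 were called after 1 h of FGF (0.347% of all tested, and 0 of 23 had an unadjusted p under 0.05), 3 after 4 h (1 higher and 2 lower, against 6.42%, of which 3.17% higher and 3.25% lower), 4 after 7 h (1 higher and 3 lower, against 9.48%, of which 4.4% and 5.08%) and 7 after 12 h (3 higher and 4 lower, against 16.8%, of which 7.87% and 8.88%). Without quiescent array 2 the count at 12 h was 4. The lower ones were 2 probe sets of the linker gene H1f2 at every time from 4 h, joined by H2az2 at 7 h and by H1f10 and H2bc22 at 12 h. The higher ones were H2ax at 4 and 7 h, and H2ax and both H2az1 probe sets at 12 h. At 7 h the difference was negative in 19 of 23, with class medians of -0.86 for linkers, -0.57 for replication-dependent and -0.64 for variant histones, beside -0.02 over all probe sets tested. Within experiments 1 and 2 the linker median at 7 h was -1.34 and -0.53, the replication-dependent -0.60 and -0.44 and the variant -0.82 and -0.11. At 12 h the medians over both experiments were -0.03, -0.28 and -0.04, beside 0.02, and within each experiment they were -0.39 and -0.50 for linkers, -0.48 and -0.01 for replication-dependent and -0.16 and 0.13 for variant histones.

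Between U0126 at -0.5 h and FGF alone, 2 probe sets were called at 4 h (both higher, against 4.41% of all tested, of which 2.3% higher and 2.11% lower), 2 at 7 h (both higher, against 4.73%, of which 2.28% and 2.45%) and 6 at 12 h (4 higher and 2 lower, against 9.54%, of which 4.61% and 4.94%). The count at 7 h was 1 without the second U0126 array, and that at 12 h was 3 without either FGF array or the second U0126 array. At 12 h the linkers H1f2 (2 of 3 probe sets) and H1f10 and the core histone H2bc22 were called higher with U0126. H2az1 and H2az2 were called lower, each in 1 of 2 probe sets. The medians at 12 h were 0.36 for linkers, 0.24 for replication-dependent and -0.54 for variant histones, beside 0.04 over all. In experiments 1 and 2 they were 0.04 and 1.43 for linkers, 0.37 and -0.04 for replication-dependent and -0.53 and -0.51 for variant histones. Each class median is over 7 or 9 probe sets, some of them near background. These effects and the comparisons of FGF with quiescent cells share the FGF arrays, so opposite signs in the pair are partly built in.

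**Figure D1:**
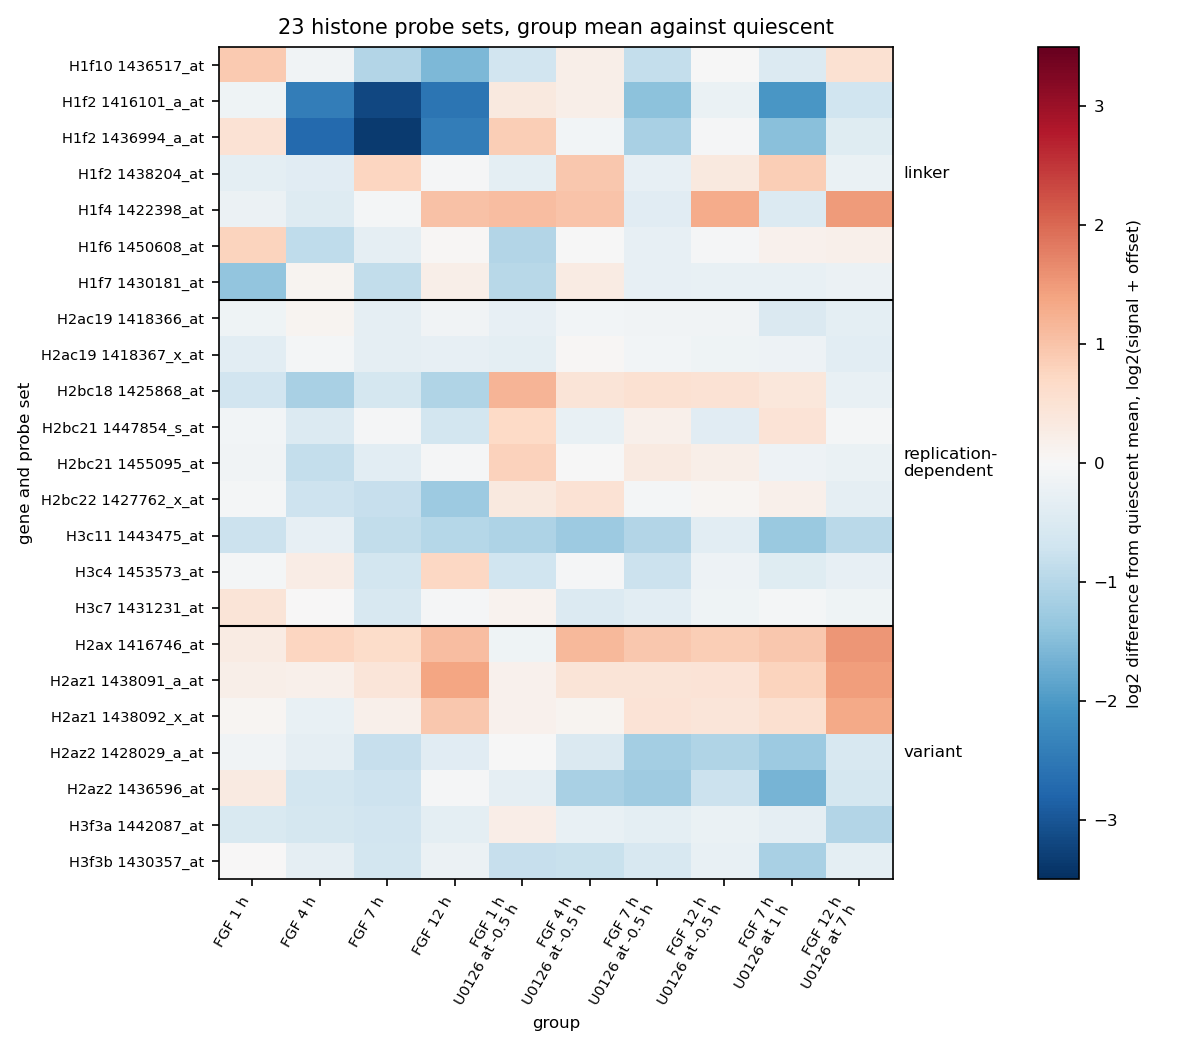
Log2 difference of each group mean from the quiescent mean for the 23 histone probe sets (rows, by class) in the other groups (columns), blue lower and red higher, on a scale of log2(signal + 13.6). The 2 dark blue rows are H1f2 from 4 h of FGF alone, from -2.42 to -3.34, and the red rows among the variants are H2ax and H2az1.

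H1f2, which encodes the linker histone H1.2, had 3 probe sets and fell most among the members. With 1416101_a_at the quiescent arrays read 2118, 2580.3 and 2051, and the FGF 1 h array read 1963. After FGF alone the signal was 461 and 346 at 4 h, 218 and 238.5 at 7 h, and 323 and 404 at 12 h. All 6 arrays from 4 h on lay below every quiescent array. The differences were -2.42 ± 0.32 at 4 h (5.33-fold lower, adjusted p = 0.00052), -3.19 ± 0.32 at 7 h (9.13-fold lower, adjusted p = 5.1e-05) and -2.55 ± 0.32 at 12 h (5.88-fold lower, adjusted p = 9.5e-05).

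With U0126 at -0.5 h the same probe set read 2760 in the array at 1 h, 2838.0 and 2218 at 4 h, 538 and 1195 at 7 h, and 1364.5 and 2523 at 12 h. At each time from 4 h both arrays lay above both arrays of FGF alone, and those of 7 h lay below every quiescent array. The U0126 effect was 2.61 ± 0.32 at 4 h (adjusted p = 0.00022), 1.76 ± 0.32 at 7 h (adjusted p = 0.0049) and 2.32 ± 0.32 at 12 h (adjusted p = 0.00029). At 7 h it was 1.19 without the second U0126 array, with adjusted p = 0.07. Against quiescent cells the U0126-treated cells differed by 0.20 ± 0.32 at 4 h (95% interval -0.50 to 0.89, adjusted p = 0.84), -1.43 ± 0.32 at 7 h (adjusted p = 0.015) and -0.24 ± 0.32 at 12 h (interval -0.93 to 0.46, adjusted p = 0.79). The fall at 7 h was thus measured with U0126 as well.

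The second H1f2 probe set, 1436994_a_at, gave a similar pattern at lower signal. The quiescent arrays read 1846, 1176 and 1001, and FGF alone gave 223 and 136 at 4 h, 93.4 and 125 at 7 h, and 189.8 and 244 at 12 h. With U0126 at -0.5 h it read 1466 and 874 at 4 h, 402 and 754 at 7 h, and 869 and 1574 at 12 h. The differences from quiescent cells were -2.71 ± 0.36, -3.34 ± 0.36 and -2.42 ± 0.36 at 4, 7 and 12 h, and the U0126 effects 2.61 ± 0.36, 2.22 ± 0.36 and 2.37 ± 0.36, with adjusted p at most 0.0017 in all 6. Both probe sets carry the _a_ suffix, which marks probes shared by transcripts of 1 gene. U0126-treated cells at 7 h differed from quiescent cells by -1.12 ± 0.36 here, which passed only with the experiment as a block (adjusted p = 0.08 without it and 0.024 with it). The third probe set, 1438204_at, ranged from 10.6 to 85.3, passed the 40th percentile on 5 arrays and had no call in any comparison.

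Adding U0126 after FGF also left H1f2 higher than FGF alone. With U0126 from 7 h the 12 h array read 1334 in 1416101_a_at and 910.5 in 1436994_a_at, above both 12 h arrays of FGF alone and below all quiescent arrays. The late effect at 12 h was 1.85 ± 0.40 (adjusted p = 0.017) and 2.01 ± 0.44 (adjusted p = 0.019). Late minus early addition at 12 h was -0.47 ± 0.40 (interval -1.32 to 0.38) and -0.36 ± 0.44 (interval -1.30 to 0.58), neither called. With U0126 from 1 h the 7 h array read 526.5 and 436. That effect was 1.16 ± 0.40 in the first probe set (adjusted p = 0.17, and 0.034 with the experiment as a block) and 1.89 ± 0.44 in the second (adjusted p = 0.033). Each late group is 1 array, assumed to vary like the rest. The late calls at 12 h were lost without either FGF 12 h array (adjusted p from 0.054 to 0.096), and that at 7 h without either FGF 7 h array (0.11 and 0.072), at effects between 1.69 and 2.18.

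**Figure D2:**
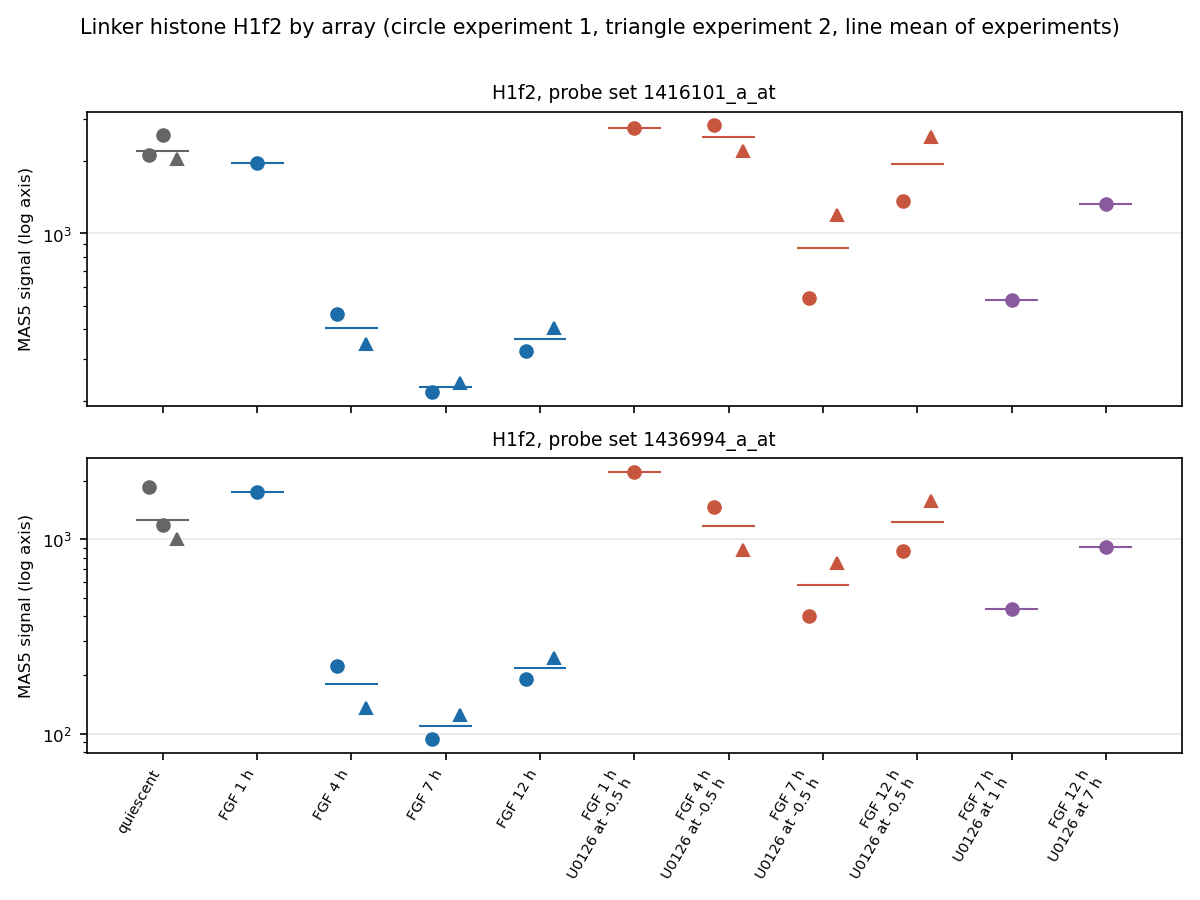
MAS5 signal of H1f2 (log axis) on each array by group, for its 2 probe sets of high signal; circles are experiment 1, triangles experiment 2 and lines the mean of experiments, with quiescent cells in grey, FGF alone in blue, U0126 at -0.5 h in red and later U0126 in purple. FGF alone from 4 h on lies at 218 to 461 in the upper panel, below the quiescent arrays at 2051 to 2580.3, and U0126 arrays lie between these or about the quiescent level.

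The other linker histones were near background. H1f10, a linker made independently of replication, read 53.4, 159 and 129 in quiescent cells, 38.2 and 20.5 after 12 h of FGF, and 110.0 and 107.7 with U0126 at -0.5 h for 12 h. The quiescent arrays spread over a wide range, but both FGF 12 h arrays lay below them. It fell by 1.56 ± 0.43 at 12 h (adjusted p = 0.02), was higher with U0126 by 1.54 ± 0.43 (adjusted p = 0.034), and with U0126 from 7 h, at 166, by 2.09 ± 0.52 (adjusted p = 0.039). Its signals, 20.5 to 220.3 over all arrays, lie around the 40th percentile of all values, 45.2, and the fall at 12 h was not called without quiescent array 1b (adjusted p = 0.098), quiescent array 2 (0.16) or the second FGF 12 h array (0.15). The U0126 effect was not called without any 1 of the 4 arrays compared (adjusted p from 0.059 to 0.22), and the late effect without either FGF 12 h array (0.058 and 0.19). H1f4, a replication-dependent linker, and H1f6 and H1f7, known from testis, had signals from 1.8 to 131.0 and no call in any comparison.

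Of the variant histones, H2az1, which encodes the main H2A.Z protein found at promoters, was highest at the last time. In 1438091_a_at the quiescent arrays read 3795, 4056 and 3008, FGF alone gave 4048 and 3804 at 4 h, 5170.1 and 4170.3 at 7 h, and 9188 and 8683 at 12 h. Both 12 h arrays were above all arrays of FGF alone at earlier times. It rose by 1.37 ± 0.20 at 12 h (2.59-fold, adjusted p = 0.00033) and between 7 and 12 h by 0.94 ± 0.20 (adjusted p = 0.039), the only 1 of 23 histone probe sets called between these times, against 1.14% of all tested. The step from 7 to 12 h was not called without any 1 of the 4 arrays compared (adjusted p from 0.085 to 0.31), while with the experiment as a block 4 of 23 were called (both H2az1 probe sets, H2ax and H2az2), against 3.57%.

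With U0126 at -0.5 h, H2az1 read 5596 and 3998 at 4 h, 5692 and 3855 at 7 h, and 5179 and 4453 at 12 h. These overlapped the arrays of FGF alone at 4 and 7 h and lay below both at 12 h. The U0126 effect was 0.27 ± 0.20 at 4 h and 0.01 ± 0.20 at 7 h (interval -0.42 to 0.45), neither called, and -0.89 ± 0.20 at 12 h (adjusted p = 0.012). The 12 h call was lost without the first or second FGF array (adjusted p = 0.083 and 0.056) or the second U0126 array (0.11). The difference between the 7 h and 12 h effects was -0.91 ± 0.29 (adjusted p = 0.54, and 0.016 with the experiment as a block). With U0126 added only from 7 h the 12 h array read 9582, level with FGF alone (0.10 ± 0.25, interval -0.43 to 0.64). Late addition exceeded early addition at 12 h by 0.99 ± 0.25 (adjusted p = 0.14, and 0.0071 with the block). Smaller differences from quiescent cells also passed only with the block, 0.43 ± 0.20 at 7 h of FGF (adjusted p = 0.24, and 0.019 with it) and 0.46, 0.45 and 0.48 at 4, 7 and 12 h with U0126 at -0.5 h (0.25, 0.24 and 0.24, and 0.018, 0.018 and 0.014 with it).

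The second H2az1 probe set, 1438092_x_at, whose suffix marks probes that can match other sequences, ran the same way with a wider spread. It read 3264, 3097 and 2481 in quiescent cells, 5998 and 4973 at 12 h of FGF, 4054 and 3494 at 12 h with U0126, and 7046 with U0126 from 7 h. The rise at 12 h was 0.96 ± 0.30 (adjusted p = 0.04), and was not called without quiescent array 2 (0.25) or either FGF 12 h array (0.21 and 0.087). The U0126 effect at 12 h was -0.54 ± 0.30 (adjusted p = 0.34, and 0.021 with the block), and U0126-treated cells differed from quiescent cells at 7 h by 0.47 ± 0.30 (0.45, and 0.047 with the block).

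H2az2, which encodes the second H2A.Z protein, was called lower than in quiescent cells at 7 h of FGF. In 1428029_a_at it read 3826, 4458 and 3765.5 in quiescent cells, 3205.5 and 3075 at 4 h of FGF, 2329.7 and 2173 at 7 h, and 3243 and 2787 at 12 h. The lowest FGF arrays were those of 7 h, and no array of FGF alone reached the lowest quiescent one. It fell by 0.81 ± 0.13 at 7 h (adjusted p = 0.0015), and the differences at 4 and 12 h, -0.33 ± 0.13 and -0.39 ± 0.13, passed only with the experiment as a block (adjusted p = 0.18 and 0.058 without it, 0.045 and 0.01 with it).

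With U0126 at -0.5 h it read 2977 and 2564 at 4 h, 1698 and 1724 at 7 h, and 1921 and 1843.0 at 12 h, below both arrays of FGF alone at each of the 3 times. The effect was -0.18 ± 0.13 at 4 h, -0.39 ± 0.13 at 7 h (adjusted p = 0.13, and 0.022 with the block) and -0.67 ± 0.13 at 12 h (adjusted p = 0.0042). The call at 12 h was lost without the first FGF 12 h array (-0.56, adjusted p = 0.064). Against quiescent cells H2az2 fell in U0126-treated cells by 0.51 ± 0.13 at 4 h (adjusted p = 0.035), 1.20 ± 0.13 at 7 h (adjusted p = 8.8e-05) and 1.06 ± 0.13 at 12 h (adjusted p = 0.00037). At 12 h these cells had 2 of 23 histone probe sets called against quiescent, against 4.28% of all tested. These were H2ax, higher (against 2.08%), and H2az2, lower (against 2.2%), and 1 was called without quiescent array 2 or the first U0126 array. The weaker probe set 1436596_at, from 89.0 to 381 in signal, fell in U0126-treated cells by 1.14 ± 0.27 at 4 h and by 1.26 ± 0.27 at 7 h (adjusted p = 0.022 and 0.01). Its differences after FGF alone were not called. At 12 h this probe set read 296.5 and 290 with FGF alone and 201 and 149 with U0126 at -0.5 h, and its U0126 effect was not called.

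H2ax, whose protein is phosphorylated at DNA breaks, rose with or without U0126. Quiescent arrays read 709.5, 1092 and 855. FGF alone gave 1642 and 1299.5 at 4 h, 1478 and 1243 at 7 h, and 2052 and 1678 at 12 h, and U0126 at -0.5 h gave 1984 and 1827 at 4 h, 1686 and 1653 at 7 h, and 1626 and 1533 at 12 h. All 12 of these arrays lay above the 3 quiescent ones. The rise was 0.74 ± 0.16, 0.64 ± 0.16 and 1.09 ± 0.16 at 4, 7 and 12 h of FGF alone (adjusted p = 0.011, 0.02 and 0.00028).

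In U0126-treated cells H2ax was higher than in quiescent cells by 1.12 ± 0.16, 0.93 ± 0.16 and 0.85 ± 0.16 (adjusted p = 0.00071, 0.0023 and 0.0057). Among the 23, 3 were called at 4 h in this comparison (against 5.66%) and 4 at 7 h (against 6.83%), or 7 at 7 h with the block (against 15.6%). The U0126 effect was 0.38 ± 0.16 at 4 h (interval 0.04 to 0.72, adjusted p = 0.23, and 0.05 with the block, just under the limit), 0.30 ± 0.16 at 7 h (interval -0.04 to 0.64) and -0.23 ± 0.16 at 12 h (interval -0.57 to 0.11), none called. The array with U0126 from 7 h read 2536, the highest of the 19. For FGF alone the rises at 4 and 7 h were not called without quiescent array 1a (adjusted p = 0.053 and 0.091), quiescent array 2 (0.086 and 0.12) or the first FGF array of that time (0.12 and 0.16). That of U0126-treated cells at 12 h was not called without quiescent array 2 (0.061) or their first array (0.065).

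H3f3a and H3f3b, the genes of the replacement histone H3.3, were not called in any comparison. The H3f3a probe set ranged from 88.9 to 255.2, with -0.35 ± 0.37 at 12 h of FGF (interval -1.15 to 0.45) and a U0126 effect of 0.11 ± 0.37 (interval -0.69 to 0.91). That of H3f3b ranged from 45.5 to 165.9, with -0.21 ± 0.48 (interval -1.24 to 0.81) and -0.06 ± 0.48 (interval -1.08 to 0.96).

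**Figure D3:**
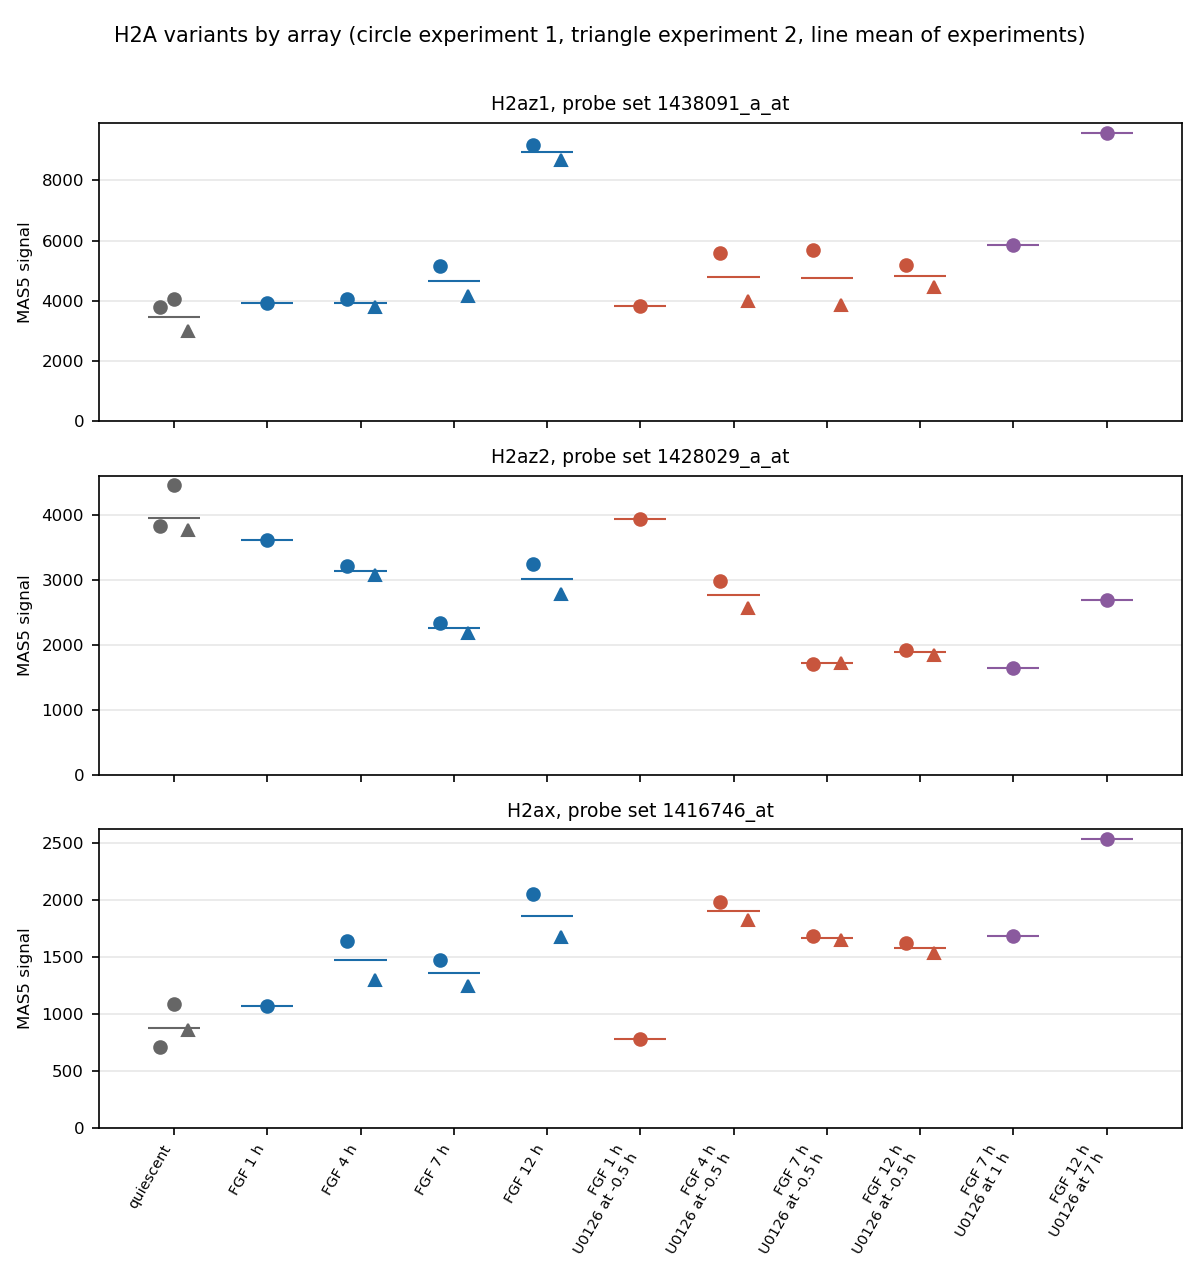
MAS5 signal (linear axis from 0) of H2az1, H2az2 and H2ax on each array by group; circles are experiment 1, triangles experiment 2 and lines the mean of experiments, coloured as quiescent (grey), FGF alone (blue), U0126 at -0.5 h (red) and later U0126 (purple). H2az1 is high on the 2 FGF 12 h arrays (9188 and 8683) and with U0126 from 7 h (9582), and H2ax is raised with and without U0126 from 4 h. H2az2 is lowest with U0126 at -0.5 h at 7 and 12 h and with U0126 from 1 h at 7 h. With U0126 from 7 h it read 2682.

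Among the 9 probe sets of replication-dependent core histones, 0 were called at 4 or 7 h of FGF (against 6.42% and 9.48% of all tested). At 12 h 1 was called (against 16.8%). Over 9 probe sets such counts lie near these shares. The 1 called was H2bc22, a gene of H2B, in the cross-matching probe set 1427762_x_at. It read 135, 101 and 98.5 in quiescent cells, 62.9 and 57.2 at 4 h of FGF, 72.0 and 42.2 at 7 h, and 49.7 and 25.4 at 12 h. Early U0126, at -0.5 h, gave 157 and 161 at 4 h, 114 and 90.9 at 7 h, and 115 and 111 at 12 h. At all 3 times both U0126 arrays were above both arrays of FGF alone, and FGF alone lay below all quiescent arrays.

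The H2bc22 difference was -1.28 ± 0.33 at 12 h of FGF (adjusted p = 0.016) and the U0126 effect 1.23 ± 0.33 at 4 h (adjusted p = 0.051, and 0.014 with the block) and 1.35 ± 0.33 at 12 h (adjusted p = 0.018). The fall was not called without quiescent array 2 (0.062) or the second FGF 12 h array (0.14), nor was the 12 h effect without that FGF array (0.17) or either U0126 array (0.094 and 0.093). H2bc18, another H2B gene, named after its values were seen, read 149, 187 and 132 in quiescent cells, 57.9 and 62.0 at 4 h, 48.5 and 163.5 at 7 h and 71.8 and 58.4 at 12 h of FGF. The arrays with U0126 at -0.5 h read 151 and 289 at 4 h, 149.7 and 317 at 7 h, and 152 and 309 at 12 h. Its U0126 effects of 1.60 ± 0.48 at 4 h and 1.56 ± 0.48 at 12 h, and its difference of -1.05 ± 0.48 at 12 h of FGF, passed only with the block (adjusted p = 0.084, 0.059 and 0.17 without it, 0.0091, 0.0067 and 0.047 with it). In all, 5 of 23 were called at 4 h of U0126 with the block, against 10.7%.

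H2ac19, a gene of H2A, had the steadiest high signal. Its probe sets ranged from 603.0 to 1081 and from 1339.0 to 2394, with differences from -0.39 to 0.22 over the comparisons, and at 12 h of FGF of -0.12 ± 0.23 (interval -0.62 to 0.37) and -0.28 ± 0.25 (interval -0.82 to 0.25). H2bc21 (2 probe sets, 22.0 to 375.6) and the H3 genes H3c4, H3c7 and H3c11 (3.7 to 135.1) had no call.

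**Figure D4:**
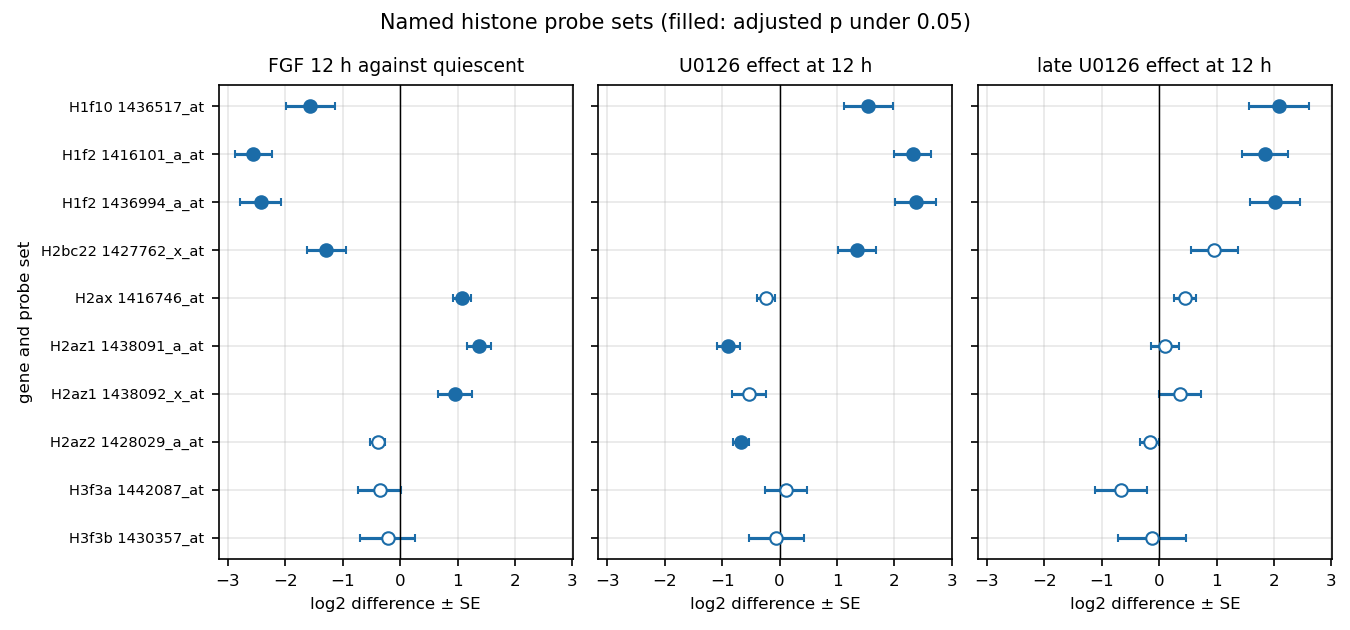
Log2 difference ± SE of the 10 histone probe sets described singly, in FGF 12 h against quiescent cells, the effect of U0126 at -0.5 h at 12 h and the effect of U0126 from 7 h at 12 h; filled points have adjusted p under 0.05. H1f2 lies at -2.55 and -2.42 in the first panel and at 2.32 and 2.37 in the second, while H2az1 lies at 1.37 and 0.96, then at -0.89 and -0.54. In the third panel H2az1 1438091_a_at lies near 0 and 1438092_x_at above 0.

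Core histone genes lie in clusters of near-identical copies, so many probe sets match several. Of 19 probe sets annotated to several histone genes only, 16 passed the filter. They stand outside the member rule and were fitted with all 34537 probe sets that passed, whatever their number of genes, a fit added after the data were seen, as were those named here. At 12 h of FGF 1 of the 16 was higher and 5 were lower than in quiescent cells (6.71% and 7.3% of that fit), and with U0126 at -0.5 h 2 were higher and 3 lower than FGF alone (3.75% and 4.16%). The single genes behind each signal cannot be told apart.

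The higher one, 1438009_at, matches 10 H2A genes. It read 3877, 6099 and 2479 in quiescent cells, 4588 and 2795 at 4 h, 2377 and 3167 at 7 h, and 17624 and 21124 at 12 h of FGF. The arrays with U0126 at -0.5 h read 1558 and 1029.5 at 12 h, and with U0126 from 7 h 15248. The 12 h arrays of FGF alone and of late U0126 stood above all others. The difference at 12 h was 2.47 ± 0.37 against quiescent (5.54-fold, adjusted p = 0.0004) and 2.81 ± 0.37 against 7 h (adjusted p = 0.0018). The effect of U0126 at -0.5 h at 12 h was -3.91 ± 0.37 (15.1-fold lower, adjusted p = 9.1e-06). These U0126 arrays were also lower than quiescent cells, with a difference of -1.44 ± 0.37 (adjusted p = 0.047). With U0126 from 7 h the difference from FGF alone was -0.34 ± 0.46. Late addition exceeded early addition by 3.58 ± 0.46 (adjusted p = 0.0025).

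Another H2A probe set, 1438815_at, which matches 2 genes, was lower than in quiescent cells by 1.05 ± 0.28 at 4 h and 0.98 ± 0.28 at 12 h of FGF (log2 differences -1.05 and -0.98, adjusted p = 0.046 and 0.032), so the H2A probe sets did not share a direction. In 1418072_at, which matches 3 H2B genes, the quiescent arrays read 1614, 1099 and 1448. FGF alone gave 765 and 900.0 at 4 h, 629 and 634.0 at 7 h and 399 and 462 at 12 h, and U0126 at -0.5 h gave 1299.0 and 1201 at 4 h, 1369.6 and 1436 at 7 h, and 1096 and 1214 at 12 h. All FGF arrays from 4 h lay below the quiescent arrays and those with early U0126. The differences from quiescent were -0.73 ± 0.15, -1.12 ± 0.15 and -1.66 ± 0.15 (adjusted p = 0.01, 0.00041 and 6.5e-06), and the U0126 effects 0.58 ± 0.15, 1.13 ± 0.15 and 1.40 ± 0.15 (adjusted p = 0.048, 0.00039 and 3e-05). With U0126 from 7 h it read 598, lower than with early addition by 0.93 ± 0.19 (adjusted p = 0.048).

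The H3 and H4 probe sets were mixed. One for 8 H3 genes, 1422155_at, read 204, 183 and 155 in quiescent cells, 85.4 ± 20.6 (SD, n = 2) at 12 h of FGF, 216.5 and 297.5 with U0126 at -0.5 h and 265 with U0126 from 7 h. It fell by 0.93 ± 0.27 with FGF at 12 h (adjusted p = 0.032), and was higher with early and late U0126 by 1.45 ± 0.27 and 1.51 ± 0.33 (adjusted p = 0.0033 and 0.023). The H3 probe set 1460314_s_at, for 12 genes, fell by 0.90 ± 0.24 at 7 h and rose by 1.47 ± 0.24 from 7 to 12 h (adjusted p = 0.031 and 0.0067). The H3 probe set 1427863_at, for 2 genes, was lower with early U0126 at 12 h by 1.91 ± 0.42 (adjusted p = 0.01). At 12 h of FGF 1442051_at, for 8 H3 genes, fell by 1.27 ± 0.30 (adjusted p = 0.011). So did 1452540_a_at, for 11 H2B and H4 genes, by 0.95 ± 0.26 (adjusted p = 0.022). The H4 probe set 1422948_s_at, for 13 genes, read 178, 324 and 195 in quiescent cells. It read 310.2 and 261 at 12 h of FGF and 109 and 137 with U0126, an effect of -1.13 ± 0.24 (adjusted p = 0.0081). Its difference between FGF at 12 h and quiescent cells, 0.37 ± 0.24, was not called (adjusted p = 0.39).

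**Figure D5:**
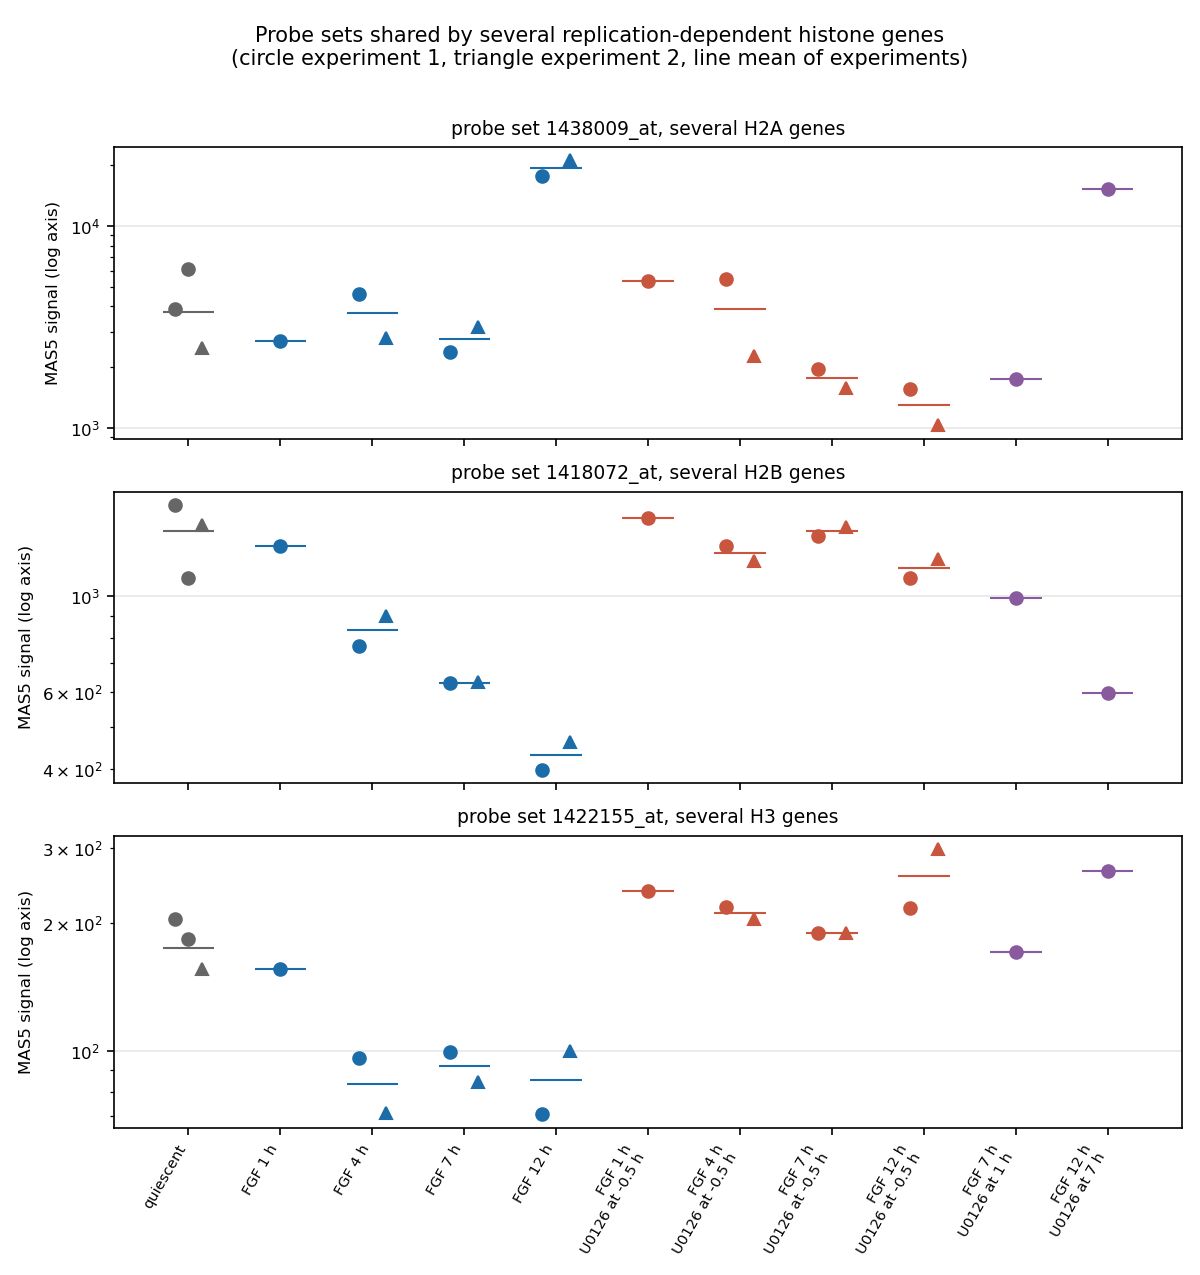
MAS5 signal (log axis) on each array of 3 probe sets that each match several replication-dependent histone genes; circles are experiment 1, triangles experiment 2 and lines the mean of experiments, coloured as quiescent (grey), FGF alone (blue), U0126 at -0.5 h (red) and later U0126 (purple). The H2A probe set reaches 17624 and 21124 at 12 h of FGF, whereas the H2B probe set falls to 399 and 462 and the H3 probe set to a mean of 85.4.

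Genes that make, process and deposit histones were taken as a list of 49 with 4 variants outside the member rule, and 46 of them were measured. Each gene was taken by its kept probe set of highest mean signal, whereas the shares beside the counts are over all probe sets tested. At 12 h of FGF 16 were higher and 2 lower than in quiescent cells (16.8%, of which 7.87% higher and 8.88% lower). With the experiment as a block these were 21 and 3 (26.6% in both directions together). With U0126 at -0.5 h 1 was higher and 13 lower than FGF alone (9.54%, of which 4.61% higher and 4.94% lower). With the block these were 2 and 23 (17.8% in both directions together). Slbp, the stem-loop binding protein of histone mRNA, rose by 1.28 ± 0.14 with FGF at 12 h and was lower with U0126 by 1.82 ± 0.14 (log2 difference -1.82). The exonuclease Eri1, which trims histone mRNA ends, rose by 1.46 ± 0.16, and the cyclins Ccne1 and Ccne2, whose kinase activates the histone gene factor NPAT, by 3.34 ± 0.30 and 3.71 ± 0.33.

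Of 23 measured chaperone and deposition genes, 9 were higher and 2 lower at 12 h of FGF than in quiescent cells (against 7.87% and 8.88% of all tested). The H3-H4 chaperone Asf1b rose by 3.59 ± 0.29, the CAF-1 subunit Chaf1b by 2.80 ± 0.34, the histone acetyltransferase Hat1 by 1.91 ± 0.20 and Nasp by 1.97 ± 0.17, while Asf1a (0.15 ± 0.13) and Ipo4 (-0.07 ± 0.16) were not called. Ubn1 and Atrx, which act in depositing H3.3, fell by 0.78 ± 0.14 and 0.59 ± 0.15 (adjusted p = 0.0015 and 0.017), and the H3.3 chaperone component Cabin1 was higher with U0126 by 0.89 ± 0.23 (adjusted p = 0.025). When U0126 was added at 7 h, 0 of the 46 were higher and 5 lower at 12 h than with FGF alone (3.85%, of which 1.74% higher and 2.11% lower), or 1 and 14 with the block (9.33%). The 5 were Nasp (-1.78 ± 0.21), Slbp (-1.33 ± 0.17), Eri1 (-1.16 ± 0.20), Hat1 (-1.06 ± 0.24) and Supt16 (-0.76 ± 0.18), the last named after its values were seen. Without 1 array, Atrx was not called at 12 h of FGF (quiescent array 2 or the first FGF 12 h array left out, adjusted p = 0.094 and 0.13), nor Cabin1 with U0126 (either FGF 12 h array or the second U0126 array, 0.18, 0.06 and 0.25), nor Hat1 with late U0126 (either FGF 12 h array, 0.13 and 0.05). In that comparison 3 of the 23 histone probe sets were called, all higher, the H1f2 pair and H1f10. Of the variant genes outside the member rule, Macroh2a1, Macroh2a2, Cenpa and H2aj, 0 of 4 were called in any comparison without the block. With it, Cenpa was higher at 12 h of FGF than in quiescent cells (0.86 ± 0.46, adjusted p = 0.25 without it and 0.011 with it) and 7 h (0.95 ± 0.46, 0.54 and 0.032), and lower with U0126 at 12 h (-1.05 ± 0.46, 0.2 and 0.0043). Macroh2a1 was lower with U0126 at 7 h (-0.43 ± 0.15, 0.13 and 0.037) and 12 h (-0.49 ± 0.15, 0.051 and 0.012). Macroh2a2 was lower at 4 h of FGF than in quiescent cells (-0.60 ± 0.22, 0.13 and 0.023) and higher at 12 h than at 7 h (0.80 ± 0.22, 0.13 and 0.011).

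The 5 S phase genes were Pcna, Mcm3, Ccne2, Rrm2 and Tk1, of which Ccne2 is also in the list of histone supply. Their median difference from quiescent cells was 0.18 at 4 h and 1.45 at 7 h of FGF. The median effect of U0126 at -0.5 h was -0.80 and -1.80 at these times. At 12 h all 5 rose with FGF, by 1.73 to 3.94, and all 5 were lower with U0126 at -0.5 h, with differences from -1.42 to -5.03. Their part in the histone results was not tested. With U0126 from 7 h all 5 were higher than with early addition (median 2.79). Their median difference from FGF alone at 12 h was then -1.10, so late addition did not leave them level with FGF alone.

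Tests of differences between times gave few calls. The U0126 effect differed between 7 and 12 h for 0 of 23 histone probe sets (0.0287% of all tested were called, and 3 of 23 had an unadjusted p under 0.05) and among 4, 7 and 12 h for 0 of 23 by limma's F test (0.548%, and 3 of 23 had an unadjusted p under 0.05). With the experiment as a block the first count was 1, H2az1 1438091_a_at (0.853% of all tested), and the second 2, both H2az1 probe sets (2.61%). With U0126 from 1 h, 1 of 23 was called at 7 h, the H1f2 probe set above, against 2.65%; with the block there were 3, against 6.08%, the H1f2 pair higher and H2az2 lower. At 1 h of FGF the U0126 effect was called for 0 of 23 (0.125%, and 3 of 23 had an unadjusted p under 0.05), with 1 array a side. Late against early addition was called for 0 of 23 at 7 h (0% of all tested, and 0 of 23 had an unadjusted p under 0.05) and 0 of 23 at 12 h (0.437%, and 4 of 23 had an unadjusted p under 0.05), or 1 at 12 h with the block, the H2az1 probe set above (1.56%).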

How the data were processed

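Total RNA of 19 samples was measured on Affymetrix whole-genome mouse arrays, 1 array a sample. The deposited values are MAS5 signal intensity, per the submitters' processing notes. They are linear, and each array's 2% trimmed mean is 500. Neither detection calls nor a version of MAS5 are given in the sources used here. No counts lie behind these values, so the number of arrays limits the precision. Of 45101 probe sets, 64 were controls, 34945 carried 1 gene symbol, 932 several and 9160 none in the platform annotation, and no single gene was named from a probe set with several.

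From the deposited intensity, log2(signal + 13.6) was computed, 13.6 being the 20th percentile of all values, and probe sets above their array's 40th percentile on at least 2 arrays were kept. Quiescent arrays 1a and 1b, from the same experiment, were averaged (r = 0.968 across probe sets, median absolute log2 difference 0.33). One model of the 11 groups was fitted in limma 3.58.1 (R 4.3.3), with eBayes moderation that let the variance follow the mean signal and with 7 residual degrees of freedom. Tests were two-sided, with Benjamini-Hochberg adjustment over 27915 probe sets. The fit was tested on simulated data. Experiment numbers in the labels were checked as pairs. Over 21 pairs of groups, deviations of same-numbered arrays from their group means correlated at 0.125 to 0.298 (median 0.216). They were therefore taken as paired in a second fit only, blocked on the experiment. The main fit, which gave every call and count where no block is named, ignored this pairing. The blocked fit had 6 residual degrees of freedom. It is given where it changes a call of a histone probe set or of the 4 other variants, or moves a printed count by over 1.5 times.

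Described singly were the histone probe sets (at most 8 a type) called in FGF 12 h against quiescent or in a U0126 effect at 7 or 12 h, and the brightest probe set of each of H1f2, H2az1, H2az2, H2ax, H3f3a and H3f3b. The members and lists were chosen with earlier results of these data known. Besides histones, the lists were fibroblast, macrophage, epithelium and endothelium markers, S phase genes and genes of histone supply. Other normalizations, offsets, filters and left-out arrays were tried.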

Additional observations from a re-analysis of the deposited data

Results flagged for a closer look

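The probe set 1438009_at, which matches 10 H2A genes and so stands outside the members, was 2.47 higher on the log2 scale at 12 h of FGF than in quiescent cells. It was flagged as a signal in data that the comparisons of single-gene probe sets do not use. Its 2 arrays at 12 h of FGF and the array with U0126 from 7 h read 15248 to 21124, and the other 16 arrays read 1029.5 to 6099. No group held 4 or more arrays, so single arrays were not compared with their group for outliers.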

How the results depend on the processing

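No called difference of a named probe set changed sign under any alternative run; of 83, 42 were kept by every alternative and 41 were lost by at least 1. The number of the 23 histone probe sets called for FGF 12 h against 7 h was 1 and became 0 with 75th percentile scaling, with no filter or with no variance trend, and 4 with the replicate block. For U0126 from 1 h at 7 h it was 1 and became 0 with no filter, with no variance trend or with 1 probe set per gene, and 3 with the block. For U0126 from 7 h at 12 h it fell from 3 to 0 with no variance trend, and for U0126 at 7 h from 2 to 1 with 1 probe set per gene. The block gave 5 for U0126 at 4 h, 1 for the difference between 7 and 12 h and 2 for that among 4, 7 and 12 h. The cause of these shifts was not tested. Over all probe sets the block raised the counts against quiescent cells from 97 to 377, 1792 to 4047, 2646 to 5016 and 4678 to 7415 at 1, 4, 7 and 12 h of FGF, and from 1194 to 3335 for FGF plus U0126 at 12 h. It raised those of U0126 at 4, 7 and 12 h from 1230 to 2985, 1321 to 2977 and 2664 to 4969, those of late U0126 at 7 and 12 h from 739 to 1698 and 1074 to 2605, that of 12 h against 7 h from 317 to 996, and those of the differences between times from 8 to 238 and 153 to 729. With no variance trend they were 58, 1006 and 1590 for FGF at 1, 4 and 7 h, 532 for FGF plus U0126, 715 and 716 for U0126 at 4 and 7 h, 399 and 490 for late U0126, 155 for 12 h against 7 h, and 0 and 51 for the differences. With 1 probe set per gene FGF at 12 h gave 3050, and with only the groups compared FGF at 7 h gave 1508 and U0126 at 4 and 7 h 638 and 790. The 8 calls of the difference between 7 and 12 h became 16 with 75th percentile scaling, 19 with the offset at the 40th percentile, 0 with no filter, 14 with 1 probe set per gene and 2 with only the groups compared. With 1 array left out, the counts ranged over 0 to 0 for FGF at 1 h, 2 to 3 at 4 h, 3 to 5 at 7 h and 4 to 8 at 12 h, 0 to 1 for 12 h against 7 h, 2 to 2, 1 to 3 and 3 to 4 for U0126 at 4, 7 and 12 h, 1 to 2 for FGF plus U0126 at 12 h, and 0 to 0 for both late effects and both differences between times. The replicate block changed no other call of a histone probe set than those given with it here or in the results above. A group of 1 array rests on the spread of the others.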
